A study of Drosophila melanogaster with 8 samples.

Results

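The genes described here are 10 of the 15682 genes counted in eye discs of Drosophila melanogaster larvae: the classical eye colour genes white (w), brown (bw), scarlet (st), vermilion (v), cinnabar (cn), rosy (ry), Punch (Pu), purple (pr), sepia (se) and Henna (Hn). They were taken by symbol, as transporters and enzymes of the 2 eye pigment pathways, and all 10 were found in the count tables. Eye discs are the larval tissue that forms the adult compound eye. Total RNA of 8 samples, 2 from each of 4 stocks, was sequenced after depletion of ribosomal RNA. All larvae were of the third instar and were reared at 25 °C, and each sample pooled 30 to 50 discs. The series asks how gene expression differs between wild type and animals in which miR-998 is expressed without its usual check. RMCE-2 and RMCE-1 are the labels' names for a pair of stocks with an exchanged mir-11~998 locus (RMCE usually means cassette exchange by a recombinase, in which a marked site is swapped for another sequence). What was placed in each, and which of them carries the unchecked microRNA, the labels do not say. The stock mir-11 KO(w-) is labelled as a mir-11 knockout in a white-mutant background. Canton S is a wild-type laboratory stock. The state of w in the RMCE stocks is not labelled, and whether the 4 stocks share a background is not given. Differences from Canton S therefore cannot be assigned to w, to the mir-11~998 locus or to the background.

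The brown and red colours of the fly eye come from a pair of pigment classes. Ommochromes are brown and are made from tryptophan through kynurenine, while pteridines such as the red drosopterins are made from GTP. Precursors are moved into pigment granules by ABC transporters, in which the White protein pairs with Scarlet for ommochrome precursors and with Brown for pteridine precursors. Pigment is laid down in the pupal eye, after the stage sampled here, and several of these genes are also used in the fat body and the Malpighian tubules.

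Total counts ran from 11929158 to 19670470 per library, and levels are given as CPM, counts scaled to a common library size with TMM factors. A difference was called at a Benjamini-Hochberg adjusted p under 0.05 in the quasi-likelihood test of edgeR over the 11068 genes that passed the filter on low counts. All 13 eye disc markers were tested, and they summed to 1520 to 1780 CPM over the 8 libraries, beside 255 to 342 CPM for 5 antennal disc markers. Transcripts of other tissues varied between libraries, and in bulk RNA fewer cells of a type and less RNA per cell cannot be told apart. The 7 fat body markers summed to 459 and 2050 CPM in the RMCE-2 libraries, 64.4 and 8440 CPM in RMCE-1, 260 and 90.9 CPM in mir-11 KO(w-), and 990 and 662 CPM in Canton S. Replicate 2 of RMCE-1 also held the highest sums of 6 salivary gland markers (3950 CPM, while the other libraries ran from 2.85 to 1530 CPM) and of 6 Hsp70 genes (4170 CPM, against 10 to 723 CPM). Replicate 1 of Canton S held 828 CPM of 9 gut markers, against 2.01 to 16.1 CPM elsewhere. The 9 Malpighian tubule markers summed to 18.3 CPM in that same library and to 6.77 to 8.88 CPM elsewhere, with 2 of them, Uro included, at 0 in all libraries. The 8 hemocyte markers summed to 273 and 272 CPM in RMCE-2, against 420 to 765 CPM in the other libraries, and 5 muscle markers to 2450 to 4260 CPM. Not every hemocyte marker was low in RMCE-2. There NimC1 had 8.44 and 8.42 CPM, against 2.47 and 4.51 CPM in Canton S, and crq ran from 76.6 to 83.1 CPM over all libraries.

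Among the 3 transporters, w was the only one whose level differed between stocks beyond the test's threshold, and Canton S held by far the most of it. The w gene lies at X:2790599-2796466 on the minus strand of BDGP6.54, within an intron of kirre, a cell adhesion gene on the other strand. Its level was 2.22 and 1.90 CPM in the RMCE-2 libraries, 4.23 and 3.26 CPM in RMCE-1, 0.428 and 0.713 CPM in mir-11 KO(w-), and 43.7 and 34.6 CPM in Canton S. No pair of stocks overlapped, and the order was Canton S, RMCE-1, RMCE-2 and mir-11 KO(w-) from high to low. The mean was 0.570 ± 0.201 CPM in mir-11 KO(w-), against 39.1 ± 6.44 CPM in Canton S (SD, n = 2 each). The low level in mir-11 KO(w-) was the direction its label gives, so it is a check of the labels rather than a result on pigment genes. The raw counts there were 8 and 12 reads, above 0.

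The level of w was 68.3-fold lower in mir-11 KO(w-) than in Canton S (log2 fold change -6.09, SE 0.27, adjusted p = 0.000515), 10.4-fold lower in RMCE-1 (-3.37, SE 0.22, adjusted p = 0.0014) and 19.0-fold lower in RMCE-2 (-4.25, SE 0.24, adjusted p = 0.00106). Against mir-11 KO(w-), w was 6.59-fold higher in RMCE-1 (2.72, SE 0.28, adjusted p = 0.0137). That call was lost without replicate 1 or 2 of mir-11 KO(w-) (adjusted p = 0.139 and 0.0958) and without replicate 1 of RMCE-2 (0.0512), with the replicate numbers as a block (0.0528) and on only the 4 libraries compared (0.12), while its log2 fold change stayed within 2.40 to 3.13 over all alternatives tried. Between RMCE-2 and mir-11 KO(w-) the log2 fold change was 1.84 (95% interval 1.15 to 2.54, adjusted p = 0.0568), which missed the threshold. It was also missed by the difference between RMCE-2 and RMCE-1, at -0.88 (-1.44 to -0.31, adjusted p = 0.138). The kirre gene around w had 62.0 to 65.7 CPM in RMCE-2, 60.2 to 62.1 CPM in RMCE-1, 53.1 to 53.5 CPM in mir-11 KO(w-) and 51.9 to 53.8 CPM in Canton S, and none of its 6 differences was called.

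**Figure D1:**
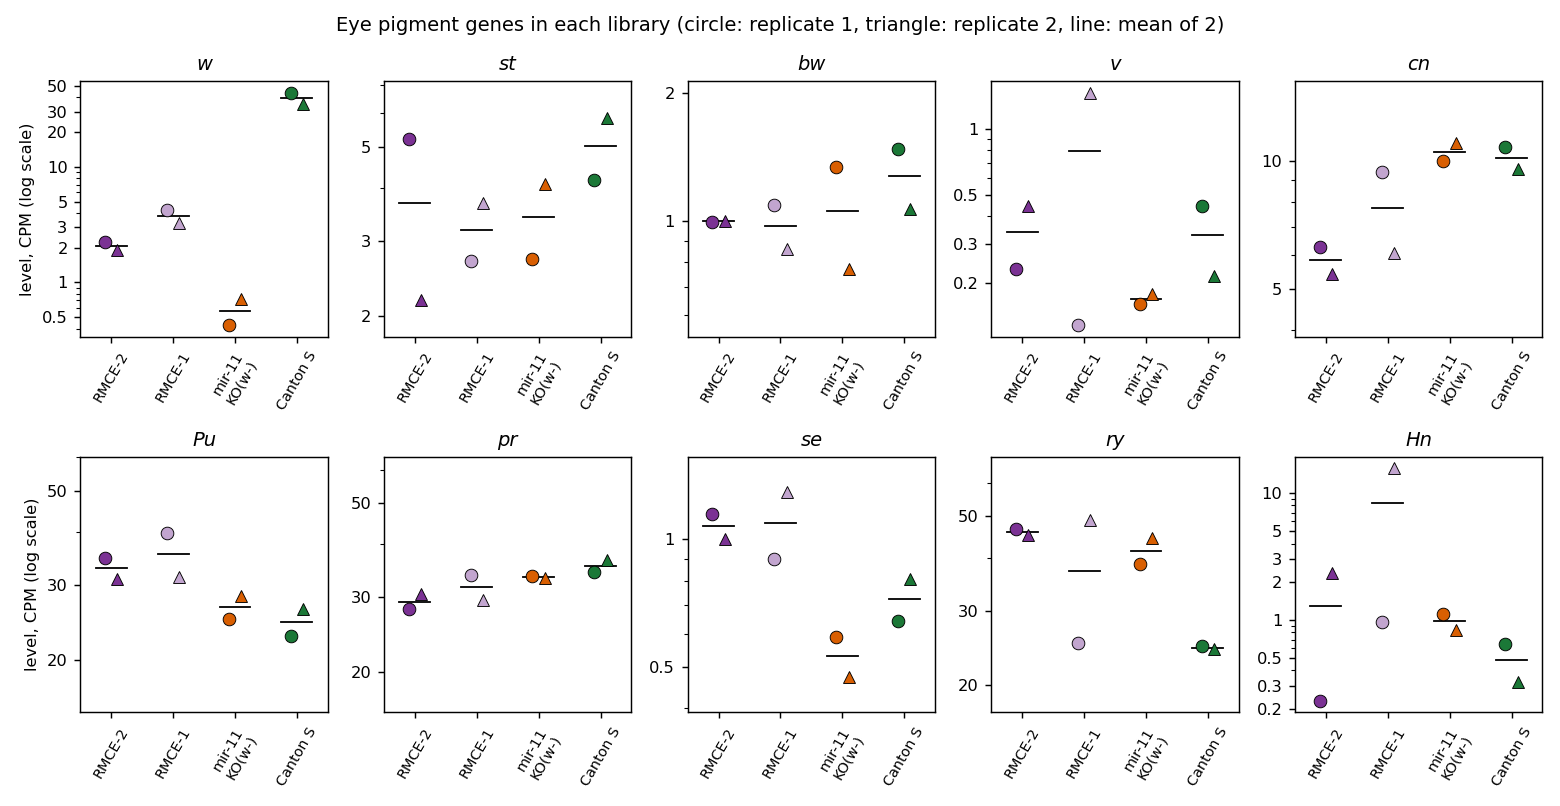
Level of each of the 10 genes in each library, in CPM on log axes that differ between panels, with circles for replicate 1, triangles for replicate 2 and a line at the mean of 2. Canton S stands far above the other stocks for w, at 43.7 and 34.6 CPM, while for Hn and v replicate 2 of RMCE-1 stands above every other library.

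A single gene, w, made up every call among the 9 of the 10 genes that were tested. It was 1 of 9 in mir-11 KO(w-) against Canton S, where 4.75% of all genes tested were called, 1 of 9 in RMCE-1 against Canton S (6.06%), 1 of 9 in RMCE-2 against Canton S (3.6%) and 1 of 9 in RMCE-1 against mir-11 KO(w-) (0.352%). The count was 0 of 9 in RMCE-2 against mir-11 KO(w-) (0.578%) and 0 of 9 in RMCE-2 against RMCE-1 (1.68%). When w was listed, the stocks were taken to differ at it by construction, so its calls are no result on the pigment genes as a group. The other 8 genes gave 48 differences, of which edgeR called 0, with 0.0783 as the lowest adjusted p and 11 at an unadjusted p under 0.05. By comparison those 11 were 4 of 8 in RMCE-2, 2 of 8 in RMCE-1 and 1 of 8 in mir-11 KO(w-) against Canton S, where 19.4, 23.2 and 20.9% of all genes were under 0.05. They were 2 of 8 in RMCE-2 and 2 of 8 in RMCE-1 against mir-11 KO(w-) (13.2 and 9.03% of all genes) and 0 of 8 in RMCE-2 against RMCE-1 (16%). DESeq2 called 2 of the 48, ry in RMCE-2 and Hn in RMCE-1, each against Canton S. Of all genes DESeq2 called 7.07% in mir-11 KO(w-), 7.98% in RMCE-1 and 5.83% in RMCE-2 against Canton S, 1.27% in RMCE-1 and 2.34% in RMCE-2 against mir-11 KO(w-), and 3.87% in RMCE-2 against RMCE-1. At these background shares fewer than 1 of 8 genes would be called, so counts of 0 do not set the pigment genes apart from the rest of the table. The 3 comparisons with Canton S share its libraries, and their values are given side by side. Between 2 stocks, non-overlap sets 2 libraries against 2 and is weak alone. For example, Sptr, a sepiapterin reductase gene, did not overlap between mir-11 KO(w-) and Canton S at an unadjusted edgeR p of 0.429. The share of all genes without overlap was not counted, so non-overlap is given below as a description only.

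**Figure D2:**
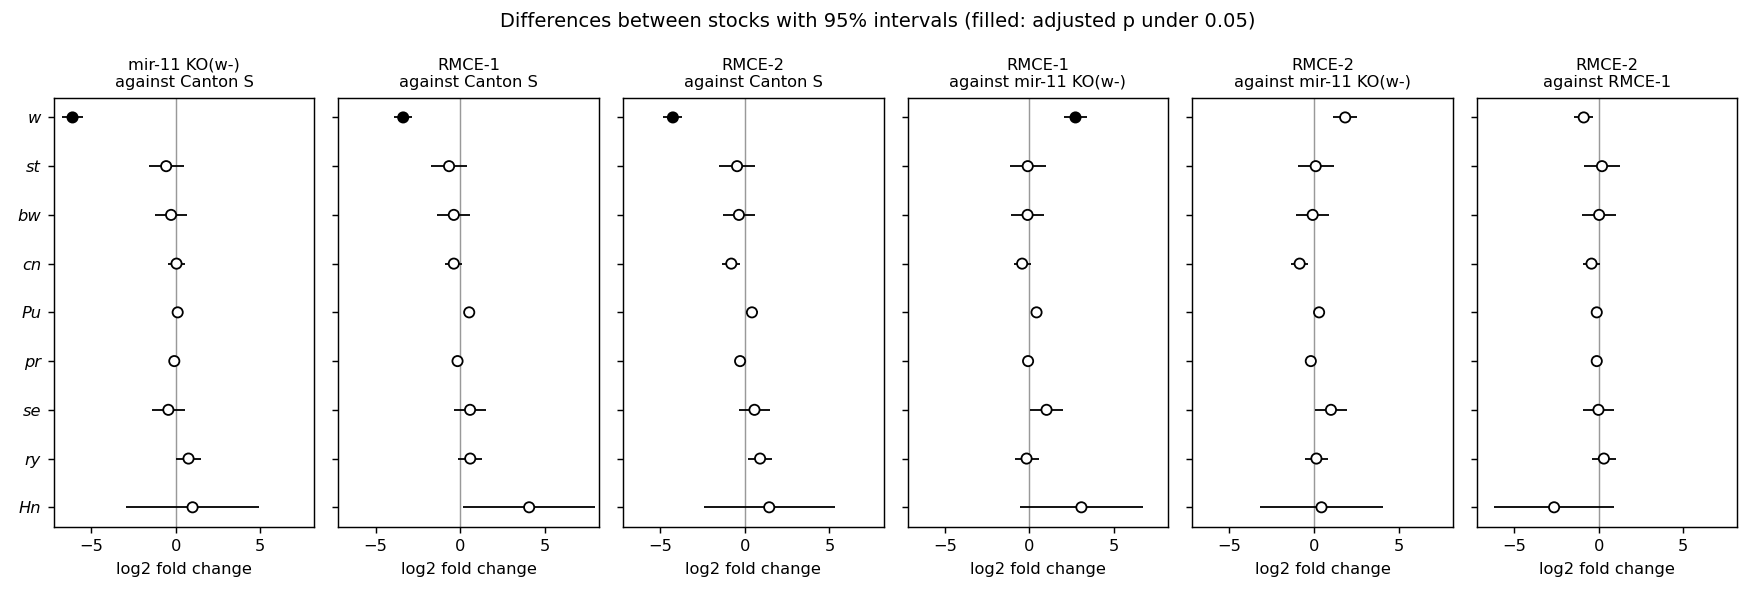
Log2 fold change of the 9 tested genes in the 6 comparisons of stocks, the first named stock over the second, with 95% intervals as bars and filled points for an adjusted p under 0.05. The filled points belong to w, while the widest intervals are those of Hn, such as 0.19 to 7.95 in RMCE-1 against Canton S.

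The partner of White in ommochrome transport, st, lies at 3L:16497651-16500460 (plus strand) within an intron of CG43373. It had 5.22 and 2.18 CPM in RMCE-2, 2.69 and 3.69 CPM in RMCE-1, 2.73 and 4.10 CPM in mir-11 KO(w-), and 4.19 and 5.86 CPM in Canton S. Canton S was above RMCE-1 and mir-11 KO(w-) with no overlap, but 1 library of RMCE-2 lay inside its range. The log2 fold changes against Canton S were -0.46 (-1.50 to 0.59) in RMCE-2, -0.66 (-1.72 to 0.40) in RMCE-1 and -0.56 (-1.60 to 0.49) in mir-11 KO(w-), with adjusted p of 0.636, 0.415 and 0.523. A fall of 2-fold is therefore inside all 3 intervals. No source names the strand setting of the counting, and CG43373 itself averaged 5.82 CPM in RMCE-2, 1.64 CPM in RMCE-1, 1.27 CPM in mir-11 KO(w-) and 5.39 CPM in Canton S. Its part in the values of st was not tested.

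The partner for pteridines, bw, at 2R:23527805-23538499 (minus strand), was near 1 CPM in every stock. It had 0.997 and 1.00 CPM in RMCE-2, 1.09 and 0.858 CPM in RMCE-1, 1.34 and 0.772 CPM in mir-11 KO(w-), and 1.48 and 1.07 CPM in Canton S. The stocks overlapped except that both RMCE-2 libraries lay below both Canton S libraries. With 10 to 30 reads per library, the 3 log2 fold changes against Canton S ran from -0.38 to -0.27 and their 95% intervals from -1.35 to 0.67. Its exons share 456 bases with mi, a gene on the other strand that had 36.4 to 39.9 CPM in all libraries.

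The ommochrome enzymes came out apart in level. Tryptophan dioxygenase, which opens the pathway and is encoded by v (X:10923972-10925631, plus strand), was the only one of the 10 genes that did not pass the filter on low counts. Its counts were 3 and 8 reads in RMCE-2, 2 and 17 in RMCE-1, 3 and 3 in mir-11 KO(w-), and 9 and 4 in Canton S. In CPM, replicate 2 of RMCE-1 stood at 1.46, and the other 7 libraries ran from 0.128 to 0.446.

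Kynurenine monooxygenase, encoded by cn (2R:7782797-7785067, minus strand), had 6.29 and 5.41 CPM in RMCE-2, 9.42 and 6.09 CPM in RMCE-1, 10 and 11 CPM in mir-11 KO(w-), and 10.8 and 9.57 CPM in Canton S. Both RMCE-2 libraries were below all libraries of mir-11 KO(w-) and Canton S, and so were both of RMCE-1. The log2 fold change of RMCE-2 was -0.80 against Canton S (SE 0.22, 95% interval -1.32 to -0.28, adjusted p = 0.105) and -0.85 against mir-11 KO(w-) (SE 0.22, -1.37 to -0.33, adjusted p = 0.177). For RMCE-1 against Canton S it was -0.38 (-0.89 to 0.13, adjusted p = 0.335), and for mir-11 KO(w-) against Canton S 0.05 (-0.45 to 0.55, adjusted p = 0.919). None was called. The difference of RMCE-2 from Canton S was called without replicate 1 of RMCE-1 (-0.79, adjusted p = 0.0421) or without replicate 2 of RMCE-1 (0.0386). An annotated antisense RNA, asRNA:CR45108, covers 1229 bases (68.7%) of the cn exons and has no value in these tables, so its reads may be among those of cn.

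The pteridine enzymes follow, with Pu, pr and se in the order of the pathway and then ry and Hn. GTP cyclohydrolase, which makes the first pteridine from GTP, is encoded by Pu (2R:21175315-21182608, plus strand). Pu had 34.7 and 31.0 CPM in RMCE-2, 39.7 and 31.3 CPM in RMCE-1, 24.9 and 28.3 CPM in mir-11 KO(w-), and 22.8 and 26.3 CPM in Canton S. All 4 RMCE libraries lay above the 4 others, while mir-11 KO(w-) and Canton S overlapped. The log2 fold change against Canton S was 0.42 in RMCE-2 (SE 0.14, 0.09 to 0.75, adjusted p = 0.166), 0.53 in RMCE-1 (SE 0.14, 0.20 to 0.87, adjusted p = 0.0783) and 0.12 in mir-11 KO(w-) (-0.22 to 0.45, adjusted p = 0.687). Against mir-11 KO(w-) it was 0.30 in RMCE-2 (-0.03 to 0.64, adjusted p = 0.417) and 0.42 in RMCE-1 (0.08 to 0.75, adjusted p = 0.446). The intervals allow at most a 2-fold difference, and no difference was called under any of the alternatives tried.

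The next enzyme, pyruvoyltetrahydropterin synthase, is encoded by pr (2L:20073719-20075458, minus strand), the most abundant of the 10 genes per length. The pr level was 28.2 and 30.5 CPM in RMCE-2, 33.8 and 29.6 CPM in RMCE-1, 33.7 and 33.4 CPM in mir-11 KO(w-), and 34.4 and 36.7 CPM in Canton S. Canton S was above every other library, by little. The largest difference was that of RMCE-2 from Canton S, -0.28 on the log2 scale (SE 0.09, -0.49 to -0.07, adjusted p = 0.151). The 3 intervals against Canton S together ran from -0.49 to 0.13, which made pr the most narrowly bounded of the tested genes. The neighbour bwa, an alkaline ceramidase gene that meets pr over 1 base on the other strand, was lower in mir-11 KO(w-) than in Canton S (-1.17, SE 0.18, adjusted p = 0.0156) and lower in RMCE-2 (-0.97, SE 0.18, adjusted p = 0.0345). The bwa call in mir-11 KO(w-) was lost without any 1 library of that stock or of Canton S (adjusted p = 0.0538 to 0.142), and the call in RMCE-2 without any 1 library other than replicate 2 of RMCE-2 (0.055 to 0.153). Without both replicate 1 of Canton S and replicate 2 of RMCE-1 neither was called (0.098 and 0.163), and the call in RMCE-2 was also lost with the replicate block (0.0848) and on only the 4 libraries compared (0.0937). DESeq2 also called bwa in RMCE-1 against Canton S (-0.72, adjusted p = 0.0185), which edgeR did without either library of RMCE-2 (0.0456 and 0.044).

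The se gene (3L:8520552-8521489, plus strand) encodes an omega-class glutathione transferase that makes the precursor of drosopterin. It had 1.15 and 1.00 CPM in RMCE-2, 0.897 and 1.29 CPM in RMCE-1, 0.588 and 0.475 CPM in mir-11 KO(w-), and 0.641 and 0.806 CPM in Canton S. The 4 RMCE libraries lay above the 4 others, and mir-11 KO(w-) lay below Canton S. With 8 to 18 reads per library, the log2 fold change against mir-11 KO(w-) was 1.00 in RMCE-2 (SE 0.40, adjusted p = 0.353) and 1.01 in RMCE-1 (SE 0.41, adjusted p = 0.536), and neither was called. Its neighbour GstO2, which shares 61 exon bases with it on the other strand, had 64.0 to 74.5 CPM in all libraries.

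Xanthine dehydrogenase, a molybdenum enzyme of purine breakdown that also makes isoxanthopterin, is encoded by ry (3R:13032528-13038020, plus strand). The ry level was 46.6 and 45.2 CPM in RMCE-2, 25.2 and 49.1 CPM in RMCE-1, 38.7 and 44.4 CPM in mir-11 KO(w-), and 24.7 and 24.3 CPM in Canton S. Of the 6 libraries outside Canton S, 5 held at least 38.7 CPM, and replicate 1 of RMCE-1 was at the level of Canton S. That split of 1.95-fold between the RMCE-1 replicates was exceeded by 3.06% of the 8174 genes with a mean of at least 5 CPM. The log2 fold change against Canton S was 0.90 in RMCE-2 (SE 0.29, 0.19 to 1.62, adjusted p = 0.168), 0.59 in RMCE-1 (SE 0.29, -0.12 to 1.31, adjusted p = 0.285) and 0.76 in mir-11 KO(w-) (SE 0.29, 0.05 to 1.47, adjusted p = 0.212).

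None of these 3 differences of ry was called by edgeR in the fit over all 8 libraries, and the outcome changed with the RMCE-1 libraries included and with the test. Without replicate 1 of RMCE-1, ry was called in RMCE-2 (0.91, adjusted p = 0.00639), in RMCE-1 (1.01, adjusted p = 0.0095) and in mir-11 KO(w-) (0.76, adjusted p = 0.00915), each against Canton S. Without replicate 2 of RMCE-1 it was called in RMCE-2 (0.91, adjusted p = 0.00564) and in mir-11 KO(w-) (0.76, adjusted p = 0.00825), while the remaining RMCE-1 library differed from Canton S by 0.04 (adjusted p = 0.866). It was also called in the fits on only the 4 libraries compared, for RMCE-2 (adjusted p = 0.0164) and for mir-11 KO(w-) (0.00873). DESeq2 called ry in RMCE-2 (adjusted p = 0.0256) and gave an adjusted p of 0.0872 in mir-11 KO(w-). The difference of RMCE-2 from RMCE-1 was 0.31 (-0.40 to 1.02, adjusted p = 0.675), 0.87 without replicate 2 of RMCE-1 (adjusted p = 0.0331) and -0.11 without replicate 1 of RMCE-1 (0.668). The fat body also uses ry, and the fat body sum was 459 and 2050 CPM in RMCE-2, 64.4 and 8440 CPM in RMCE-1, 260 and 90.9 CPM in mir-11 KO(w-), and 990 and 662 CPM in Canton S. The part of these transcripts in the values of ry was not tested.

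Phenylalanine hydroxylase, which converts phenylalanine to tyrosine with a pteridine cofactor, is encoded by Hn (3L:7760453-7763166, plus strand). Hn had 0.230 and 2.34 CPM in RMCE-2, 0.962 and 15.7 CPM in RMCE-1, 1.12 and 0.832 CPM in mir-11 KO(w-), and 0.641 and 0.322 CPM in Canton S. A single library, replicate 2 of RMCE-1, held 183 reads, and the next highest, replicate 2 of RMCE-2, held 42. Its replicates differed 10.2-fold in RMCE-2 and 16.3-fold in RMCE-1 in CPM. On the log2(CPM + 0.5) scale, where gaps at low levels shrink, 0.575% and 0.648% of the 8174 genes had a larger gap. Those genes have a mean of at least 5 CPM and Hn a lower one, so its counting error is larger than theirs. The log2 fold change of RMCE-1 against Canton S was 4.07 (SE 1.56, 0.19 to 7.95, adjusted p = 0.199). It was 0.98 without replicate 2 of RMCE-1 (adjusted p = 0.68) and 5.01 without replicate 1 of RMCE-1 (0.0717), whereas DESeq2 called it on all libraries (4.11, adjusted p = 0.01). In mir-11 KO(w-) against Canton S it was 1.00 (-2.91 to 4.92), an interval that leaves both directions possible.

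The 2 libraries with the most Hn were also those with the most fat body transcripts, 8440 CPM in replicate 2 of RMCE-1 and 2050 CPM in replicate 2 of RMCE-2. Among the other libraries the orders differed. Hn was at 0.641 CPM in replicate 1 of Canton S (fat body sum 990 CPM) and 0.230 CPM in replicate 1 of RMCE-2 (459 CPM). It was at 0.962 CPM in replicate 1 of RMCE-1, where the sum was lowest (64.4 CPM). The v gene was highest in replicate 2 of RMCE-1 and of RMCE-2, at 1.46 and 0.446 CPM, with 0.444 CPM in replicate 1 of Canton S. All 7 fat body markers were tested. Lsp2, a larval serum protein, was at 2570 CPM in replicate 2 of RMCE-1 and at 8.73 to 458 CPM in the other libraries. Of the 7 markers, only Lsp1gamma did not peak in replicate 2 of RMCE-1. There it reached 22 CPM, below every library of mir-11 KO(w-) (lowest 33.7 CPM) and of Canton S (lowest 127 CPM). Replicate 2 of RMCE-2 held 0 reads of Lsp1gamma. The Hsp70 and salivary gland sums were also at their highest in replicate 2 of RMCE-1. The part of these transcripts in the values of Hn and v was not tested.

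**Figure D3:**
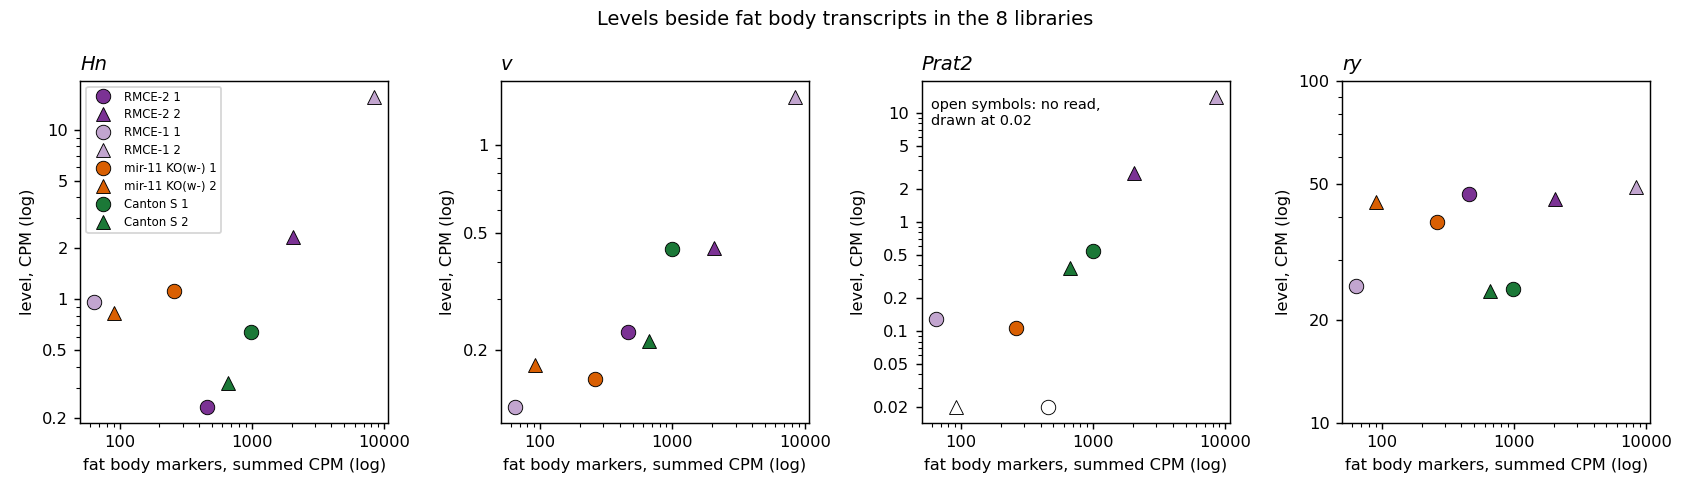
Level in CPM of Hn, v, Prat2 and ry (log axes) against the summed CPM of the 7 fat body markers (log axis) in each of the 8 libraries. Replicate 2 of RMCE-1 stands at the upper right for Hn, v and Prat2, at 15.7, 1.46 and 14.1 CPM, while ry lies between 24.3 and 49.1 CPM.

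Levels of different genes were compared per kilobase of annotated exons (CPM per kb). In RMCE-2, pr led with 27.4 CPM per kb, and Pu (15.3), ry (10.6), cn (3.27), st (1.72), se (1.31), w (0.876), Hn (0.608), bw (0.365) and v (0.259) followed. In Canton S, pr led with 33.1 CPM per kb, and w (16.6), Pu (11.4), cn (5.68), ry (5.65), st (2.34), se (0.877), bw (0.467), v (0.253) and Hn (0.228) followed. Neighbours in the Canton S order differed with no overlap of their libraries except cn with ry and v with Hn. In RMCE-2 the overlapping neighbours were st with se, w with Hn, and Hn with bw. In RMCE-1 and mir-11 KO(w-) the first 4 were again pr, Pu, ry and cn, which did not overlap. The w level per length was above that of 12.1% of the tested genes in RMCE-2, 18.1% in RMCE-1, 3.68% in mir-11 KO(w-) and 61.5% in Canton S, while pr was above 75.7% to 79.6%. The lower part of the order rests on few reads, and in RMCE-1 all neighbours below cn overlapped.

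**Figure D4:**
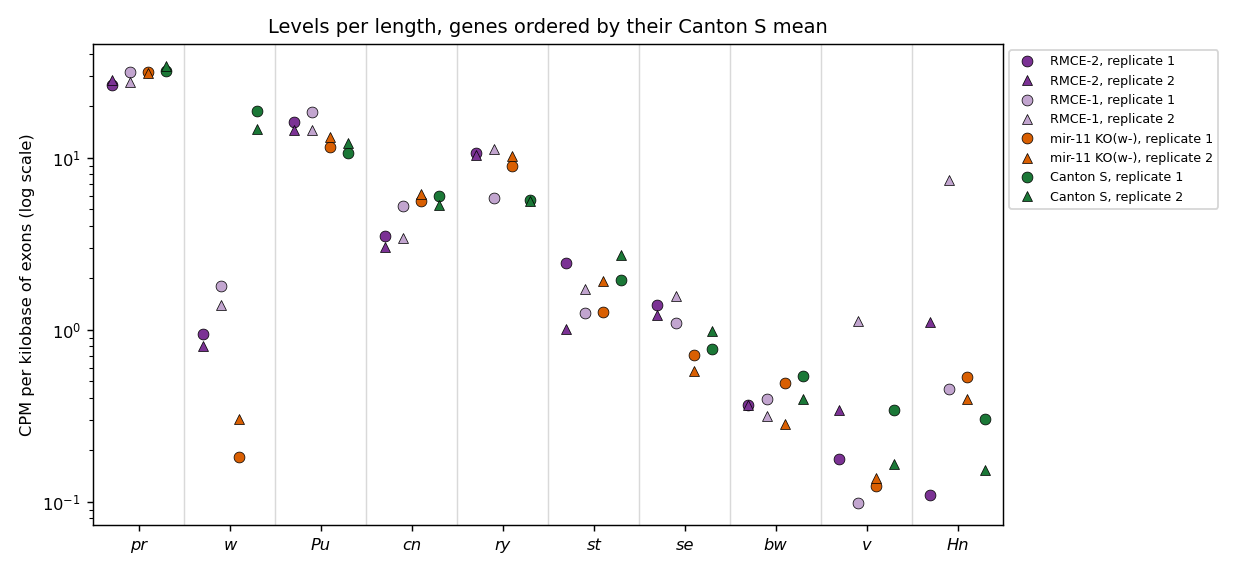
Level in CPM per kb of exons (log scale) of the 10 genes in each library, ordered by their Canton S mean, with colour for the stock and shape for the replicate. The genes span 33.1 CPM per kb for pr to 0.228 for Hn in Canton S, and w spans 0.182 to 18.6 CPM per kb over the 8 libraries.

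The other genes of these pathways were taken as lists. Of the ommochrome genes, cd (cardinal, a peroxidase that makes xanthommatin), kar (karmoisin) and Kyat (kynurenine aminotransferase) were tested, and edgeR called 0 of 3 in any comparison. Against Canton S, an unadjusted p under 0.05 was seen for 2 of 3 in RMCE-2, 3 in RMCE-1 and 2 in mir-11 KO(w-). Of all genes, 19.4, 23.2 and 20.9% were under 0.05 there. The count was 0 of 3 in the other comparisons. The cd level averaged 4.64 CPM in RMCE-2, 4.08 CPM in RMCE-1 and 4.54 CPM in mir-11 KO(w-), against 2.43 CPM in Canton S, and no library overlapped (log2 fold changes 0.93, 0.75 and 0.90, adjusted p = 0.111, 0.153 and 0.108). The kar level lay the other way, at 7.79 CPM in RMCE-2, 8.87 CPM in RMCE-1 and 8.25 CPM in mir-11 KO(w-), against 17.1 CPM in Canton S (-1.12, -0.95 and -1.05, adjusted p = 0.0888, 0.107 and 0.0915). Canton S was again outside the range of the other 6 libraries. DESeq2 called kar in RMCE-2 (adjusted p = 0.021) and in mir-11 KO(w-) (0.0273). The fit on only the 4 libraries compared called it in mir-11 KO(w-) (0.0457).

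Of 8 other pteridine genes, which include the sepiapterin reductase Sptr, the thioredoxin-like clot (cl) and the molybdenum cofactor genes mal, cin and Mocs1 that xanthine dehydrogenase needs, 7 were tested and edgeR called 0 in every comparison. At an unadjusted p under 0.05 they were 3 of 7 in RMCE-1 against Canton S, beside 23.2% of all genes. In the other 5 comparisons 0 of these 7 genes were under 0.05. DESeq2 called 1 of them, Mocs1 in RMCE-1 against Canton S (1.27, adjusted p = 0.0203, and 0.165 in edgeR). Mocs1 had 23.6 and 15.1 CPM in RMCE-2, 16.9 and 39.7 CPM in RMCE-1, 16.4 and 14.7 CPM in mir-11 KO(w-), and 10.4 and 13.1 CPM in Canton S, so replicate 2 of RMCE-1 stood above all others. Mocs1, and ple among the cofactor enzymes, were given values after those were seen. The list's medians against Canton S were 0.11 in RMCE-2, 0.07 in RMCE-1 and 0.13 in mir-11 KO(w-), where the medians over all genes were 0, 0.01 and 0.01. Of 9 genes of purine synthesis and GTP supply, ras (raspberry, IMP dehydrogenase) was lower in mir-11 KO(w-), at 151 and 158 CPM, than in Canton S, at 202 and 214 CPM (-0.43, SE 0.09, adjusted p = 0.0476). In the RMCE stocks it stood at 147 and 175 CPM in RMCE-2 and 167 and 155 CPM in RMCE-1, also with no overlap with Canton S (-0.37 in each, adjusted p = 0.0798 and 0.0618). DESeq2 called ras in all 3 stocks against Canton S (adjusted p = 0.015 in RMCE-2, 0.0116 in RMCE-1 and 0.00125 in mir-11 KO(w-)). The edgeR call in mir-11 KO(w-) was lost without either library of mir-11 KO(w-) (adjusted p = 0.294 and 0.241) or of Canton S (0.111 and 0.15) and without replicate 1 of RMCE-1 (0.0509). It was also lost in 5 alternatives that leave out no library or a pair of them, with adjusted p of 0.0528 to 0.104. Prat2, the amidotransferase that opens purine synthesis, had 0 and 2.79 CPM in RMCE-2, 0.128 and 14.1 CPM in RMCE-1, 0.107 and 0 CPM in mir-11 KO(w-), and 0.543 and 0.376 CPM in Canton S. It was highest in the same libraries as Hn, and was named after its values were seen.

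Of 3 other enzymes that use the pteridine cofactor tetrahydrobiopterin, edgeR called 0 in every comparison, while DESeq2 called tyrosine hydroxylase (ple) in 3. The ple level averaged 67.5 CPM in RMCE-2, 59.2 CPM in RMCE-1, 26.5 CPM in mir-11 KO(w-) and 53.7 CPM in Canton S. The Canton S libraries lay far apart, at 37.1 and 70.3 CPM, while those of mir-11 KO(w-) had 24.3 and 28.8 CPM. Against mir-11 KO(w-) the log2 fold change of ple was 1.35 in RMCE-2 (SE 0.32, adjusted p = 0.186 in edgeR and 0.00018 in DESeq2) and 1.16 in RMCE-1 (SE 0.32, 0.392 and 0.00455). In mir-11 KO(w-) against Canton S it was -1.02 (SE 0.32, adjusted p = 0.156 in edgeR and 0.00552 in DESeq2). The other 15 differences of the 3 enzymes were called by neither tool. Of 20 genes of pigment granule biogenesis, such as the adaptor subunits g, rb, cm and or, 18 were tested, and both edgeR and DESeq2 called 0 in every comparison. Against Canton S, an unadjusted p under 0.05 was seen for 2 of 18 in RMCE-2, 3 in RMCE-1 and 3 in mir-11 KO(w-). Of all genes, 19.4, 23.2 and 20.9% were under 0.05 there. In the other comparisons the count was 1 to 2 of 18, beside 9.03 to 16% of all genes. The pigment granule genes summed to 675 to 714 CPM in the 8 libraries, and none passed 0.57 in size against Canton S on the log2 scale. Muted and Snapin had no read in any library.

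All edgeR calls in these lists other than that of ras fell among the remaining ABCG transporters, the family of w. All 10 found were tested. Against Canton S, called members were 2 higher and 0 lower in RMCE-2 (2% and 1.6% of all genes), 2 higher and 3 lower in RMCE-1 (2.85% and 3.22%), and 1 higher and 2 lower in mir-11 KO(w-) (2.37% and 2.39%). The count was 0 higher and 1 lower in RMCE-2 against RMCE-1 (0.94% and 0.741%). It was 0 in both directions in RMCE-1 against mir-11 KO(w-) (0.208% and 0.145%) and in RMCE-2 against mir-11 KO(w-) (0.334% and 0.244%), with 2 and 3 of 10 at an unadjusted p under 0.05, beside 9.03 and 13.2% of all genes. DESeq2 called 1, 5 and 3 of the 10 in the comparisons of RMCE-2, RMCE-1 and mir-11 KO(w-) with Canton S. At an unadjusted p under 0.05 they were 6, 6 and 5 of 10, beside 19.4, 23.2 and 20.9% of all genes. The median of the 10 was -0.02, 0.13 and -0.11, with members on both sides of 0. DESeq2 also called 1 of the 10 in each of the other 3 comparisons.

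CG31689 was the member called in all 3 stocks against Canton S. It had 13.6 and 13.4 CPM in RMCE-2, 12.8 and 15.7 CPM in RMCE-1, 12.6 and 12.3 CPM in mir-11 KO(w-), and 6.27 and 6.93 CPM in Canton S. The log2 fold changes were 1.03, 1.11 and 0.92 (SE 0.13 each, adjusted p = 0.00943, 0.00731 and 0.0131). Without replicate 1 of Canton S the adjusted p were 0.0702, 0.055 and 0.0865. The call in RMCE-1 was also lost on only the 4 libraries compared (0.0693) and without both replicate 1 of Canton S and replicate 2 of RMCE-1 (0.88, 0.0702). The call was further lost without either library of RMCE-2 for that stock (0.0741 and 0.0502) and without either of mir-11 KO(w-) for that stock (0.127 and 0.128).

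E23, an ecdysone-induced transporter, had 38.7 and 40.8 CPM in RMCE-2, 30.7 and 31.0 CPM in RMCE-1, 22.7 and 25.0 CPM in mir-11 KO(w-), and 41.8 and 55.3 CPM in Canton S. It was lower than in Canton S in mir-11 KO(w-) (-1.03, SE 0.13, adjusted p = 0.00947) and in RMCE-1 (-0.65, SE 0.13, adjusted p = 0.036). The mir-11 KO(w-) call was lost without replicate 1 or 2 of that stock (adjusted p = 0.114 and 0.091). The RMCE-1 call was lost without any 1 library other than replicate 1 of Canton S, with adjusted p of 0.0721 to 0.117, and also on only the 4 libraries compared (0.136). Its size was -0.43 without replicate 2 of Canton S.

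CG32091 had 41.6 and 37.5 CPM in RMCE-2, 54.4 and 53.5 CPM in RMCE-1, 39.4 and 38.5 CPM in mir-11 KO(w-), and 33.4 and 36.9 CPM in Canton S. RMCE-1 was higher than mir-11 KO(w-) by 0.47 (adjusted p = 0.0941 in edgeR and 0.0261 in DESeq2). In edgeR the level was called higher in RMCE-1 than in Canton S (0.62, SE 0.08, adjusted p = 0.00904) and lower in RMCE-2 than in RMCE-1 (-0.45, SE 0.08, adjusted p = 0.046). The call in RMCE-1 was lost without replicate 1 of Canton S (0.0641), without it and replicate 2 of RMCE-1 (0.0915) and on only the 4 libraries compared (0.0543). That of RMCE-2 against RMCE-1 was lost in 14 of 17 alternatives (0.0501 to 0.222), among them those without any 1 of the 8 libraries. CG17646 was lower than in Canton S in mir-11 KO(w-) (-0.65, SE 0.11, adjusted p = 0.023) and in RMCE-1 (-0.51, SE 0.11, adjusted p = 0.0461). Its mir-11 KO(w-) call was lost without replicate 2 of Canton S (-0.49, 0.0595), without replicate 1 or 2 of mir-11 KO(w-) (0.21 and 0.14) and without replicate 2 of RMCE-2 (0.0517). Its RMCE-1 call was lost without any 1 library other than replicate 1 of Canton S (0.0836 to 0.151) and in 5 further alternatives (0.0519 to 0.153). CG9663 was lower in RMCE-1 (-0.53, adjusted p = 0.0437), a call lost without any 1 library (0.0586 to 0.191) and in 3 further alternatives (0.0875 to 0.313). CG5853 was higher in RMCE-2 (0.47, adjusted p = 0.0328), a call lost without any 1 library of RMCE-2, mir-11 KO(w-) or Canton S (0.094 to 0.163) and in 4 further alternatives (0.0708 to 0.0929), DESeq2 among them.

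**Figure D5:**
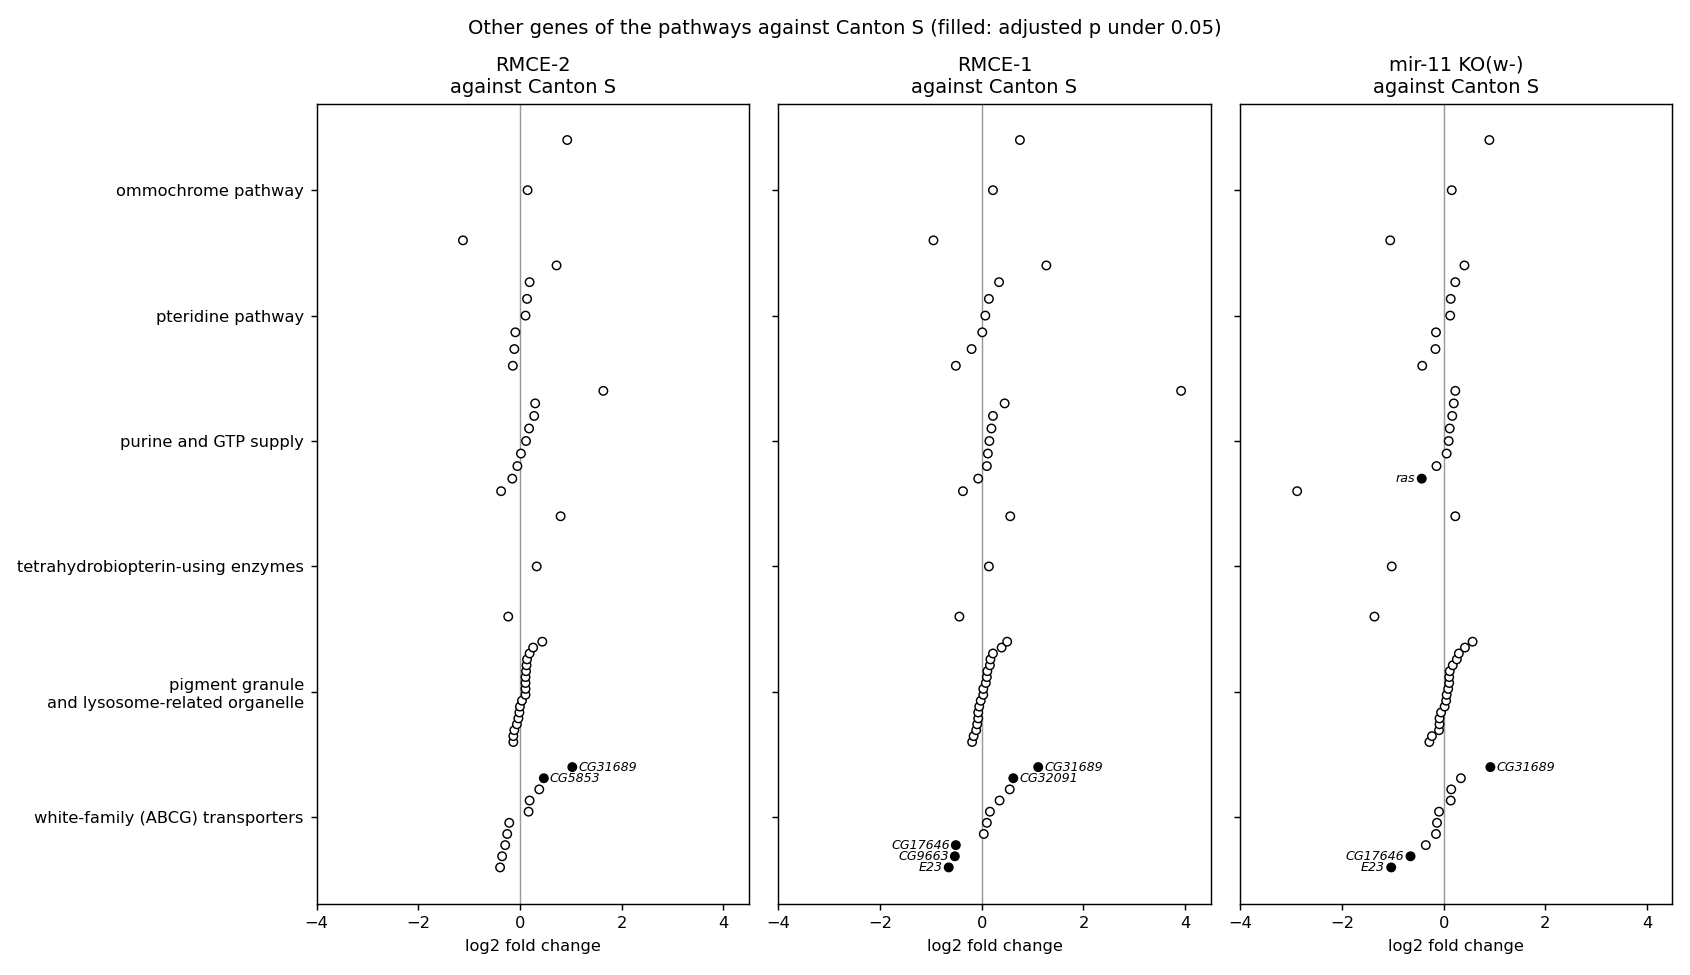
Log2 fold change of the other pathway genes in RMCE-2, RMCE-1 and mir-11 KO(w-), each over Canton S, by list, with filled points and names for an adjusted p under 0.05. CG31689 lies to the right in all 3 panels, at 1.03, 1.11 and 0.92, and the 18 pigment granule genes stay within 0.57 of 0.

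The genes whose profile over the 8 libraries lay nearest to that of w were sought among 8174 genes with a mean of at least 5 CPM, by the root mean square difference of log2 levels centred on each gene's mean. CG31522 was nearest at 0.75, then CG32198 at 0.89 and CG13063 at 0.91, while w itself deviated from its own mean by 1.93. The CG31522 level was 6.44 and 5.75 CPM in RMCE-2, 4.29 and 18.0 CPM in RMCE-1, 3.42 and 3.62 CPM in mir-11 KO(w-), and 55.5 and 71.2 CPM in Canton S. CG32198 averaged 25.5 CPM in Canton S and had at most 0.429 CPM in any other library. CG13063 averaged 2.94 CPM in RMCE-2, 3.13 CPM in RMCE-1, 1.95 CPM in mir-11 KO(w-) and 20.2 CPM in Canton S. All 3 share with w a high level in Canton S, which follows from choosing them by the profile of w. They lie on 3R (CG31522) and 3L (CG32198 and CG13063), not on the X chromosome of w.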

How the data were processed

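RNA was measured in 2 samples, called biological replicates in the labels, of each of 4 stocks. Whether they came from separate cultures is not given, so p-values measure only the spread between these samples, which may be technical. The deposited values are raw read counts per gene in each library, not normalized by the authors. The submitters' processing notes name TopHat2, featureCounts of Subread, FastQC and CASAVA 1.8.2. Per the labels' protocols the libraries were directional with single-end reads of 50 bases. No source used here gives the genome build or how strand was counted.

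Of 15682 identifiers, 15002 matched a symbol and position in Ensembl 115 (BDGP6.54), from which exon lengths and overlaps were taken, and 680 did not. The robust quasi-likelihood test of edgeR 4.0.16 (R 4.3.3) was fitted to all 8 libraries with 1 mean per stock, which leaves 4 residual degrees of freedom. TMM factors were 0.9711 to 1.036, filterByExpr left out 4614 genes, and p-values were adjusted by Benjamini-Hochberg over the other 11068. All 6 pairs of stocks were compared. SE is the log2 fold change over the square root of F, and intervals are 95%. The common biological coefficient of variation was 20.6%. Profiles used log2(CPM + 0.5). The steps were tested on simulated counts with the same spread for every gene and no library that stands apart. The simulated counts therefore do not show how the test behaves with such libraries.

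Named were the 10 genes, called list members whose libraries did not overlap (up to 4 per list and comparison), genes overlapping a member, and the 3 genes nearest to a called member. The members and lists were chosen with earlier results of these data known. Of 129 list entries 121 matched. The alternatives were DESeq2 1.42.0, other scalings and filters, no robust estimation, fits on 4 libraries, a replicate block, and leaving out each library, or Canton S replicate 1 with RMCE-1 replicate 2, known from earlier results to stand apart. Counting error alone at 10 reads is large, so genes below 1 CPM are measured loosely.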

Additional observations from a re-analysis of the deposited data

How the results depend on the processing

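The differences of w from Canton S kept their sign and stayed called in all 17 alternatives. The stocks were taken to differ at w by construction, so this is no result on the pigment genes as a group. The number of members called in mir-11 KO(w-) against Canton S was 1, and 2 in the fit on only the 4 libraries compared and without the pair that stood apart (Canton S replicate 1 and RMCE-1 replicate 2). In RMCE-1 against Canton S it was 1, and 2 with DESeq2. In RMCE-2 against Canton S it was 1, and 2 with DESeq2, with 4 libraries and without the pair. The added gene was ry, or Hn for RMCE-1. In RMCE-1 against mir-11 KO(w-) it was 1, but 0 with 4 libraries (w adjusted p = 0.12), and in RMCE-2 against mir-11 KO(w-) it was 0, but 1 with DESeq2 (w 0.00327) and 1 with no filter on low counts (0.0404). Leaving out 1 library at a time gave 1 to 2 members for mir-11 KO(w-) and for RMCE-1 against Canton S, and 1 to 3 for RMCE-2. Against mir-11 KO(w-) it gave 0 to 1 for RMCE-1 and 0 for RMCE-2, and for RMCE-2 against RMCE-1 it gave 0 to 1. The log2 fold change of ry in RMCE-2 against RMCE-1 was 0.31, -0.11 without RMCE-1 replicate 1 and 0.87 without RMCE-1 replicate 2. Of the 54 member differences, 4 were called. Of the 50 others, 20 changed sign in at least 1 alternative and 7 were called in at least 1. The causes of these changes were not tested.

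The replicate numbers are not stated to pair samples. Deviations of same-numbered samples correlated at 0.32 between mir-11 KO(w-) and Canton S and at -0.35 to -0.11 in the other 5 pairs of stocks. With a replicate block 0 members were called in RMCE-1 against mir-11 KO(w-) (w adjusted p = 0.0528), and the other 5 counts of members did not move.

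Over all genes the number called in mir-11 KO(w-) against Canton S was 526 (41 to 1078 over the alternatives), in RMCE-1 671 (143 to 883), in RMCE-2 398 (94 to 620), in RMCE-1 against mir-11 KO(w-) 39 (4 to 177), in RMCE-2 against it 64 (3 to 254) and in RMCE-2 against RMCE-1 186 (17 to 420). Depth limits v, se, bw and Hn, which had under 50 reads in all but 1 library.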
